A study of Saccharomyces cerevisiae with 12 samples.

Results

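The genes described here are 10 regulators of glucose repression and derepression in budding yeast: SNF1 (YDR477W), REG1 (YDR028C), MIG1 (YGL035C), MIG2 (YGL209W), MIG3 (YER028C), RGT1 (YKL038W), ADR1 (YDR216W), CAT8 (YMR280C), SIP4 (YJL089W) and HAP4 (YKL109W). They were chosen by gene symbol from the probe annotation, and all 10 were among the 5636 genes measured. A set of 3 deletion strains, all grown with 2% glucose, were each compared with wild type on 4 Agilent arrays that carried both RNAs in different dyes. By their labels these are a nup84 null, a gcr1 null and a double null lacking both genes, and neither the strain background nor the alleles' construction is given in the labels. Gcr1 activates glycolytic genes, and Nup84 is part of the scaffold of the nuclear pore complex. Per the design text, the arrays hold biological replicates that were each hybridised again with the dyes exchanged, so the 4 arrays of a strain were counted as 2 samples (n = 2).

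When glucose is plentiful, budding yeast ferments it and keeps the genes for other carbon sources and for respiration at low levels. The protein phosphatase Glc7, brought to its substrates by Reg1, keeps the kinase Snf1 inactive, and the repressor Mig1 then sits in the nucleus and recruits the corepressor Cyc8-Tup1. When glucose runs out, Snf1 becomes active, Mig1 leaves the nucleus, and the activators Adr1, Cat8, Sip4 and Hap4 turn on genes of ethanol and fatty acid use, gluconeogenesis and respiration. Rgt1 belongs to a neighbouring branch, in which the sensors Snf3 and Rgt2 relieve its repression of hexose transporter genes. Much of this control acts on protein activity, which these arrays did not measure.

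Each value is the log2 of the deletion strain's level over that of wild type, so 0 means equal levels. Tested values come with a standard error (SE) from limma that pools the spread of 2 samples over all 3 strains. A gene was called when its Benjamini-Hochberg adjusted p over 5636 genes was under 0.05. The deleted genes were read as a check of the labels. NUP84 fell to -3.19 and -2.74 in the nup84 null and the strain labelled double null (limma, adjusted p = 0.000549 and 0.000128). GCR1 went against its label and rose to 1.08 and 0.78 in the strains labelled gcr1 and double null (adjusted p = 0.00453 and 0.0174). Of these 4 calls, that of NUP84 in the strain labelled double null passed with every pair of arrays left out. Where the GCR1 probes lie relative to the deletion is not given, and those strains are therefore named by their labels. The direction of every ratio in the strain labelled gcr1 null rests on the dyes given in those labels. Arrays of a strain correlated across genes at 0.707 to 0.891, 0.575 to 0.852 and 0.469 to 0.826 in the strains labelled gcr1, nup84 and double null.

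The transcripts of the activators ADR1 and CAT8 and of the repressor RGT1 rose in all 3 strains. ADR1 stood highest, at 5.90-fold, 4.73-fold and 5.17-fold of wild type in the strains labelled gcr1, nup84 and double null. SIP4 rose in both strains labelled as lacking GCR1, and MIG1 rose in the gcr1-labelled strain. Transcripts of SNF1, REG1, MIG2, MIG3 and HAP4 passed the test in none of the 3 strains.

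In the strain labelled gcr1 null, 5 of 10 regulators were called higher and 0 lower, where 17.2% of all genes were called higher and 17.7% lower. In the nup84 null 3 were called higher and 0 lower, where the shares of all genes were 8.61% and 8.09%. The strain labelled double null had 4 called higher and 0 lower, against 20.5% and 18.9% of all genes. Leaving out a pair of a strain's own arrays leaves 1 mean for that strain. In the nup84 null and the gcr1-labelled strain such omissions lost regulator calls, and calls over all genes fell too, so the loss is not particular to the regulators. Under these omissions the nup84 null means stayed at 2.06 to 2.43 for ADR1, 1.22 to 1.48 for CAT8 and 0.91 to 1.54 for RGT1. More regulators were called in the nup84 null with a pair of the strain labelled double null left out. Calls over all genes in the nup84 null also rose under some omissions, so this gain is not shown to be particular to the regulators. The median of the 10 regulators was 0.83, 0.62 and 0.58 in these strains, and the median over all genes was 0.03, -0.01 and 0.03. The 3 comparisons may share wild-type RNA, since the labels do not say whether each array had its own, so their values are given side by side and may not be independent of each other.

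**Figure D1:**
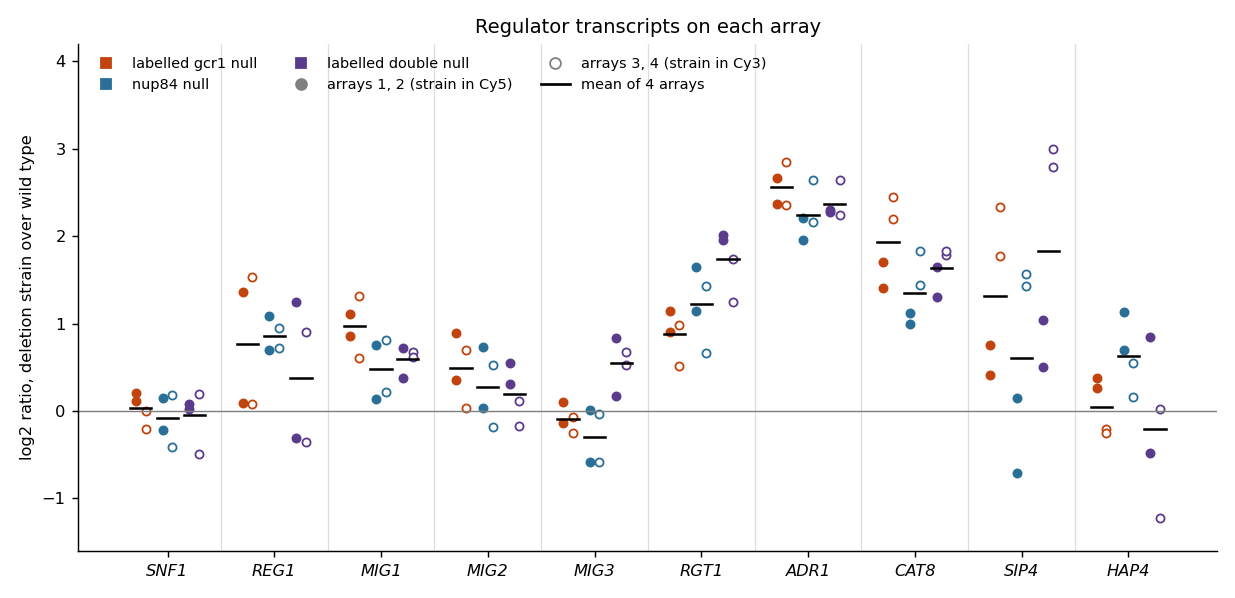
Log2 ratio of deletion strain over wild type (vertical axis) for each of the 10 regulators, with 1 point per array and the mean of the 4 arrays in each strain. The lowest ADR1 value on the 12 arrays was 1.95, SIP4 spread from -0.71 to 2.995, and SNF1 lay between -0.49 and 0.21.

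Snf1 is the catalytic subunit of the yeast AMP-activated protein kinase. SNF1 read 0.12, 0.21, -0.20 and 0.01 on arrays 1 to 4 of the strain labelled gcr1 null. Values in the nup84 null were -0.22, 0.15, -0.42 and 0.18, and in the strain labelled double null 0.03, 0.09, -0.49 and 0.19. The arrays lay on both sides of 0 in every strain. Its means of 0.03 ± 0.22, -0.08 ± 0.22 and -0.05 ± 0.22 (SE, n = 2) did not pass limma's test (adjusted p = 0.919, 0.843 and 0.888).

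Reg1 is the regulatory subunit that directs the phosphatase Glc7 to Snf1. In the nup84 null REG1 read 0.70, 1.09, 0.95 and 0.72 on arrays 1 to 4, all above 0. In the strain labelled gcr1 null it read 0.10, 1.37, 0.08 and 1.54, and in the strain labelled double null -0.30, 1.25, -0.36 and 0.90. In both of these strains arrays 1 and 3 were low and arrays 2 and 4 high, with no overlap between the array pairs. The difference between the pair means (arrays 1 and 3 minus arrays 2 and 4) was -1.37 and -1.41, at percentiles 98.0 and 92.2 of its absolute size over all genes, against -0.08 in the nup84 null. The means of REG1 were 0.77, 0.86 and 0.37 in the strains labelled gcr1, nup84 and double null, with an SE of 0.39, and did not pass limma's test (adjusted p = 0.158, 0.159 and 0.479). That SE is pooled over strains of unequal spread, as the SD of the REG1 arrays was 0.79, 0.19 and 0.83 in these strains. REG1 was called higher in the nup84 null after arrays were scaled to a common spread and with each strain fitted alone. Up to 4192 of all genes were called in that strain over the alternatives, so these calls are not read as particular to REG1. Whether arrays 1 and 3 are the dye swap of 1 sample is not labelled, and the part of sample differences in these values was not tested.

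Partners and targets of the regulators were read from 9 lists. For them, all 13 calls named in the nup84 null were lost under at least 1 omission of an array pair. The calls kept under every omission in the strain labelled gcr1 null were the 8 of ACS1, GSM1, HXK1, JEN1, MSN4, MTH1, POT1 and SPS19. Of 18 in the strain labelled double null, the 5 that were lost were GLC7, HXT2, RGT2, SIP2 and TUP1.

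From each list, up to 2 called genes in each direction were picked for naming in each strain, those farthest from 0. The calls followed under omissions above are those picked in this way, and a gene can be called in further strains too. Of the other genes that act with Snf1 and Reg1, 10 were measured. The strain labelled gcr1 null had 1 called higher and 2 lower, the nup84 null 1 higher and 0 lower, and the strain labelled double null 2 higher and 2 lower. Against the shares of all genes (17.2%, 8.61% and 20.5% higher; 17.7%, 8.09% and 18.9% lower), these counts are near the background. SNF4, encoding the activating gamma subunit of the kinase, fell to -0.90 and -1.01 in the strains labelled gcr1 null and double null, and read -0.71 in the nup84 null without passing (adjusted p = 0.0159, 0.00866 and 0.0646). SIP2, encoding a beta subunit that holds the kinase in the cytoplasm, rose to 0.78 and 0.96 in the same 2 strains. GAL83, encoding the beta subunit found in the nucleus, fell to -0.64 in the strain labelled gcr1 null. REG2, a relative of REG1, rose to 0.74 in the nup84 null and 0.93 in the strain labelled double null. GLC7, which encodes the phosphatase itself, fell to -0.92 in the strain labelled double null. This list held genes that rose and genes that fell, and its medians were 0.18, 0.09 and -0.17.

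Mig1 is the zinc finger repressor that Snf1 phosphorylates, and MIG1 was the member of its family that passed the test. It read 0.86, 1.11, 0.61 and 1.31 on arrays 1 to 4 of the strain labelled gcr1 null, all above 0. Its nup84 null arrays read 0.14, 0.76, 0.21 and 0.81, and in the strain labelled double null 0.73, 0.38, 0.68 and 0.61. MIG1 rose to 0.97 ± 0.24 in the gcr1-labelled strain (SE, n = 2; limma, adjusted p = 0.0132). Its means of 0.48 and 0.60 in the other strains did not pass (adjusted p = 0.194 and 0.0751), although all arrays there were above 0. With each of the 4 pairs of its own arrays left out in turn, the MIG1 mean in the strain labelled gcr1 null was 0.73 to 1.21 and no longer passed (adjusted p = 0.0555 to 0.259).

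Mig2 and Mig3 share the DNA-binding domain type of Mig1, and Mig2 acts with Mig1 at several repressed genes. MIG2 read 0.89, 0.35, 0.70 and 0.04 on arrays 1 to 4 of the strain labelled gcr1 null. Across the nup84 null arrays it read 0.04, 0.74, -0.18 and 0.53, and in the strain labelled double null 0.55, 0.31, 0.11 and -0.17. Its means of 0.50, 0.28 and 0.20 had an SE of 0.25 and did not pass (limma, adjusted p = 0.165, 0.483 and 0.563). MIG3 read -0.14, 0.10, -0.07 and -0.25 in the strain labelled gcr1 null, and -0.58, 0.01, -0.59 and -0.03 in the nup84 null. In the strain labelled double null MIG3 read 0.84, 0.17, 0.52 and 0.68, all above 0 and above every array of both other strains. Its mean of 0.55 there did not pass the test against 0 (adjusted p = 0.0777), and neither did -0.09 and -0.30 in the other strains (adjusted p = 0.781 and 0.387).

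The corepressor that Mig1 recruits was read from TUP1 and CYC8, together with the repressors NRG1 and NRG2. TUP1 fell to -1.14, -1.02 and -0.96 in the strains labelled gcr1, nup84 and double null (limma, adjusted p = 0.0072, 0.0249 and 0.0136). NRG2, a repressor of glucose-repressed genes that binds Snf1, fell to -1.17 in the strain labelled gcr1 null. Of these 4 genes, 2 were called lower in that strain and 1 in each of the others, and 0 were called higher. In the strains labelled gcr1, nup84 and double null that is 50%, 25% and 25% lower, against 17.7%, 8.09% and 18.9% of all genes. Higher calls made up 17.2%, 8.61% and 20.5% of all genes. With 4 genes, such counts are too small to set apart from the background. CYC8 read 0.03, 0.24 and 0.50 and passed in none of the strains (adjusted p = 0.957, 0.698 and 0.316).

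Rgt1 is a zinc cluster protein that represses hexose transporter genes when glucose is absent. RGT1 read 1.14, 0.91, 0.98 and 0.51 on arrays 1 to 4 of the strain labelled gcr1 null. On arrays 1 to 4 of the nup84 null it read 1.15, 1.65, 0.67 and 1.44, and in the strain labelled double null 2.01, 1.96, 1.74 and 1.24. All 12 arrays lay above 0. RGT1 rose to 0.89 ± 0.23, 1.22 ± 0.23 and 1.74 ± 0.23 (SE, n = 2; limma, adjusted p = 0.0187, 0.0119 and 0.000724), the last a 3.34-fold ratio. The calls in the strain labelled gcr1 null and in the nup84 null were lost with each of the 4 pairs of their own arrays left out in turn (adjusted p = 0.114 to 0.233 and 0.0973 to 0.363), with means of 0.71 to 1.06 and 0.91 to 1.54. The call in the strain labelled double null passed under every such omission.

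Of 7 genes that act with Rgt1 in glucose sensing, 3, 1 and 2 were called higher in the strains labelled gcr1, nup84 and double null, and 0 lower, which is 42.9%, 14.3% and 28.6% of the list against 17.2%, 8.61% and 20.5% of all genes. MTH1, whose product is a partner that Rgt1 needs for repression, rose to 1.67, 1.92 and 1.12 in these strains (limma, adjusted p = 0.000975, 0.00239 and 0.00518). SNF3, encoding the sensor of low glucose, rose to 1.14 in the gcr1-labelled strain. RGT2, encoding the sensor of high glucose, rose to 0.77 in that strain and 0.74 in the strain labelled double null. Grr1 and the kinases Yck1 and Yck2 lead to breakdown of Mth1, and the transcripts of these 3 passed in none of the strains, with values from -0.57 to 0.21.

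Adr1 is a zinc finger activator of genes for ethanol, glycerol and fatty acid use. ADR1 read 2.66, 2.37, 2.85 and 2.36 on arrays 1 to 4 of the strain labelled gcr1 null. Values in the nup84 null were 1.95, 2.20, 2.17 and 2.65, and in the strain labelled double null 2.28, 2.30, 2.65 and 2.25. The arrays of the 3 strains overlapped, and each lay above 0. ADR1 rose to 2.56 ± 0.22, 2.24 ± 0.22 and 2.37 ± 0.22 (SE, n = 2; limma, adjusted p = 0.000123, 0.000953 and 0.000136). In the nup84 null the call was lost under 3 of the 4 omissions of its own array pairs (adjusted p = 0.0629 to 0.0872), while the other strains kept theirs. ADR1 was read by 1 probe, so no second probe checks it.

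Cat8 is a zinc cluster activator of gluconeogenic genes whose own gene is known to be repressed through Mig1. CAT8 read 1.41, 1.70, 2.20 and 2.45 on arrays 1 to 4 of the strain labelled gcr1 null. Its nup84 null arrays read 0.99, 1.13, 1.44 and 1.84, and in the strain labelled double null 1.302, 1.65, 1.78 and 1.83. In each strain the arrays with the deletion strain in Cy5 (1 and 2) lay below those with it in Cy3 (3 and 4), by 0.77, 0.58 and 0.33 on average. CAT8 rose to 1.94 ± 0.21, 1.35 ± 0.21 and 1.64 ± 0.21 (SE, n = 2; limma, adjusted p = 0.000289, 0.00654 and 0.000528), which is 3.84-fold, 2.55-fold and 3.12-fold. The call in the nup84 null was lost with each of the 4 pairs of its own arrays left out (1.22 to 1.48; adjusted p = 0.0973 to 0.269).

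Sip4 is a related zinc cluster activator that binds the same carbon source response element as Cat8, and its gene is known to need Cat8. SIP4 read 0.75, 0.41, 1.78 and 2.33 on arrays 1 to 4 of the strain labelled gcr1 null. Across the nup84 null arrays it read 0.15, -0.71, 1.43 and 1.57, and in the strain labelled double null 0.51, 1.04, 2.995 and 2.80. Arrays 3 and 4 were high and arrays 1 and 2 low in every strain, with no overlap between the dye orientations. SIP4 rose to 1.32 ± 0.21 and 1.84 ± 0.21 in the strains labelled gcr1 null and double null (SE, n = 2; limma, adjusted p = 0.00181 and 0.000307), and its mean of 0.61 in the nup84 null did not pass (adjusted p = 0.0751). The call in the gcr1-labelled strain was lost without arrays 2 and 4 or without arrays 1 and 4 (adjusted p = 0.0557 and 0.0809).

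The gap between dye orientations in SIP4 (Cy5 mean minus Cy3 mean) was -1.48, -1.78 and -2.12 in the strains labelled gcr1, nup84 and double null. Its absolute size stood at percentiles 96.3, 98.4 and 97.4 over all genes, whose medians were 0.331, 0.269 and 0.425. An additive dye effect cancels in the mean, because each strain has 2 arrays in each orientation. A fit of the 4 arrays as replicates with a dye term, chosen after seeing the data, left the SIP4 means at 1.32, 0.61 and 1.84 and called all 3 higher (limma, adjusted p = 2.48e-05, 0.0095 and 1.41e-06), with dye swaps counted as replicates. The 2 SIP4 probes averaged 1.56 and 1.08 in the strain labelled gcr1 null. That gap of 0.474 was the widest between probes of a regulator in any strain.

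Hap4 is the activating subunit of the Hap2/3/4/5 complex, which drives respiratory genes. HAP4 read 0.38, 0.27, -0.20 and -0.25 on arrays 1 to 4 of the strain labelled gcr1 null. On arrays 1 to 4 of the nup84 null it read 0.69, 1.14, 0.16 and 0.55, and in the strain labelled double null -0.48, 0.84, -1.23 and 0.02. The nup84 null alone had all arrays above 0, and in every strain arrays 1 and 2 averaged above arrays 3 and 4, by 0.55, 0.57 and 0.79. HAP4 also differed between array pairs in the strain labelled double null, where arrays 1 and 3 lay below arrays 2 and 4 with no overlap and the pair means differed by -1.28 (percentile 89.8), next to the -1.41 of REG1. The means of 0.05, 0.63 and -0.21 had an SE of 0.30 and did not pass (limma, adjusted p = 0.911, 0.182 and 0.613).

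**Figure D2:**
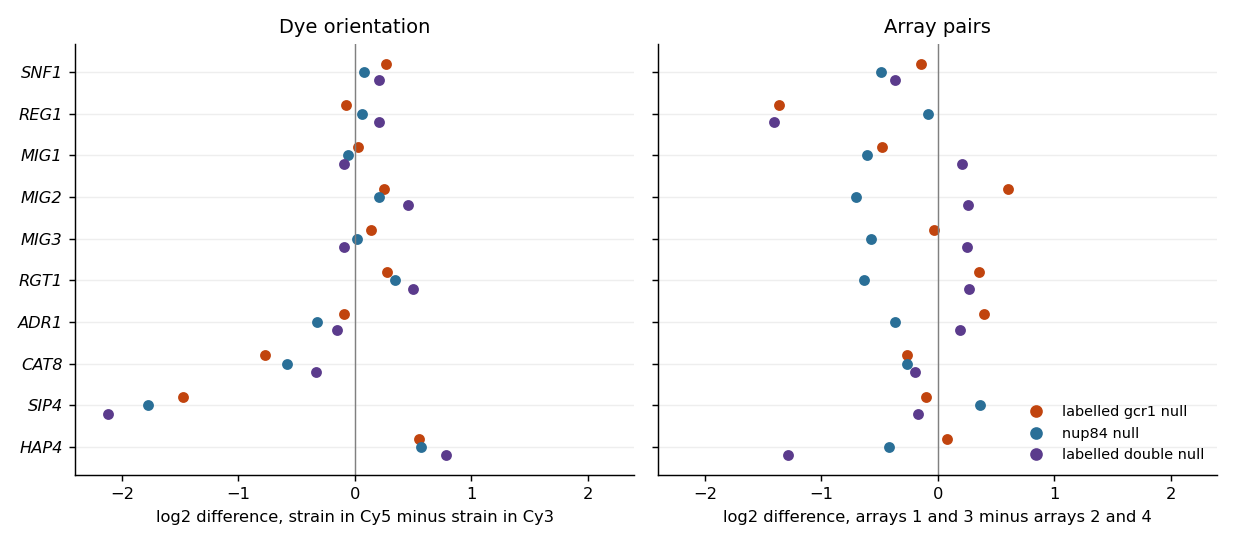
Difference between dye orientations (Cy5 mean minus Cy3 mean) and between array pairs (arrays 1 and 3 minus arrays 2 and 4), in log2 units, for each regulator and strain. By dye, SIP4 has the widest gap in each strain, at -1.48 to -2.12. By array pair, REG1 read -1.37 and -1.41 in the strains labelled gcr1 and double null, and HAP4 read -1.28 in the latter.

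Among 11 other activators of respiratory and stress genes, 3, 2 and 3 were called higher in the strains labelled gcr1, nup84 and double null, and 0 lower. These are 27.3%, 18.2% and 27.3% of the list, where 17.2%, 8.61% and 20.5% of all genes were called higher, so with 11 genes the counts are near the background. MSN4, encoding a stress response activator, rose to 1.53, 1.80 and 1.25. GSM1, a zinc cluster gene, rose to 1.32, 1.22 and 0.96 in the strains labelled gcr1, nup84 and double null. ERT1, encoding a zinc cluster regulator of gluconeogenesis, rose to 1.24 and 1.66 in the strains labelled gcr1 null and double null. HAP2, HAP3 and HAP5, which encode the DNA-binding subunits that Hap4 joins, read -0.53 to 0.47 and passed in none of the strains.

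Known targets were read next to their regulators. The lists of partners and targets were taken from textbook knowledge, but chosen with earlier results of these data known. Their shares of called genes are therefore not independent of the data. The lists overlap, since ACS1 and ADY2 are in both the Cat8 and Sip4 list and the Adr1 list. Whether probes tell relatives such as the hexose transporter genes apart was not checked. Of 11 Adr1 targets, 7, 5 and 8 were called higher in the strains labelled gcr1, nup84 and double null, and 0 lower, with medians of 1.95, 0.67 and 2.65. These and the next counts of targets called higher stand against 17.2%, 8.61% and 20.5% of all genes. SPS19, encoding a peroxisomal enzyme of fatty acid breakdown, rose to 3.67, 3.002 and 4.004 in the strains labelled gcr1, nup84 and double null. POT1, encoding peroxisomal thiolase, rose to 3.42, 2.38 and 3.98 in these strains. ADH2, encoding the alcohol dehydrogenase that uses ethanol, rose to 2.34, 0.99 and 4.74. ALD4, encoding mitochondrial aldehyde dehydrogenase, rose to 3.25, 2.005 and 4.23. GUT1, encoding glycerol kinase, read 0.09, -0.12 and 0.09 and did not pass (adjusted p = 0.802, 0.767 and 0.792).

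Of 10 Cat8 and Sip4 targets, 8, 8 and 9 were called higher and 0 lower, with medians of 1.27, 1.08 and 1.65. JEN1, the lactate transporter gene, rose to 2.76 and 2.54 in the strains labelled gcr1 null and double null. ACS1, encoding an acetyl-CoA synthetase, rose to 1.95, 1.12 and 3.28 in the strains labelled gcr1, nup84 and double null. IDP2, encoding cytosolic isocitrate dehydrogenase, rose to 1.54, 2.37 and 2.81 in these strains. PCK1, encoding the gluconeogenic enzyme phosphoenolpyruvate carboxykinase, rose to 0.88, 1.87 and 1.62. ADY2, an acetate transporter gene, read 0.20, 0.24 and 0.50 and passed in none of the strains (limma, adjusted p = 0.49, 0.444 and 0.0772).

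Of 12 Hap4 targets, 11, 1 and 11 were called higher in the strains labelled gcr1, nup84 and double null, and 0 were called lower. HAP4 itself passed in none of these strains. The medians of the targets were 1.06, 0.46 and 1.14 in the strains labelled gcr1, nup84 and double null. SDH2, encoding a succinate dehydrogenase subunit, rose to 1.98 and 1.81 in the strains labelled gcr1 null and double null. ATP2, encoding the beta subunit of the ATP synthase, rose to 1.45, 0.92 and 1.48 in the strains labelled gcr1, nup84 and double null. ATP1, encoding the alpha subunit, rose to 1.02 and 1.93 in the strains labelled gcr1 null and double null. Whether the counts differ between strains was not tested as a list.

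Of 10 genes known to be repressed through Mig1, 7, 4 and 5 were called higher in the strains labelled gcr1, nup84 and double null, and 0, 0 and 1 lower. HXK1, encoding a hexokinase, rose to 4.31, 4.32 and 3.84 in these strains. EMI2, a glucokinase relative, rose to 2.16 in the gcr1-labelled strain. The hexose transporter gene HXT4 rose to 1.98 there and 1.88 in the nup84 null. The galactokinase gene GAL1 rose to 0.95 in the gcr1-labelled strain and 1.84 in the strain labelled double null. SUC2, encoding invertase and the textbook target of Mig1, read 0.24, -0.13 and -0.03 and did not pass (limma, adjusted p = 0.46, 0.731 and 0.934).

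Of 7 Rgt1 targets, 2, 2 and 1 were called higher and 0, 1 and 1 lower, with medians of 0.42, 0.09 and -0.05. With 7 genes the counts are near the background of 17.2%, 8.61% and 20.5% higher and 17.7%, 8.09% and 18.9% lower. HXT4, which is in both the Mig1 and the Rgt1 list, rose to 1.98 in the gcr1-labelled strain and 1.88 in the nup84 null. HXT1, encoding the low-affinity transporter, fell to -1.05 in the nup84 null, and HXT2, another list member shared with Mig1, fell to -1.05 in the strain labelled double null. MTH1 is also counted among the Rgt1 targets, with the values given above. It is among the genes called higher there in every strain, and is the 1 called higher in the strain labelled double null. Whether Rgt1 controls MTH1 was not checked.

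**Figure D3:**
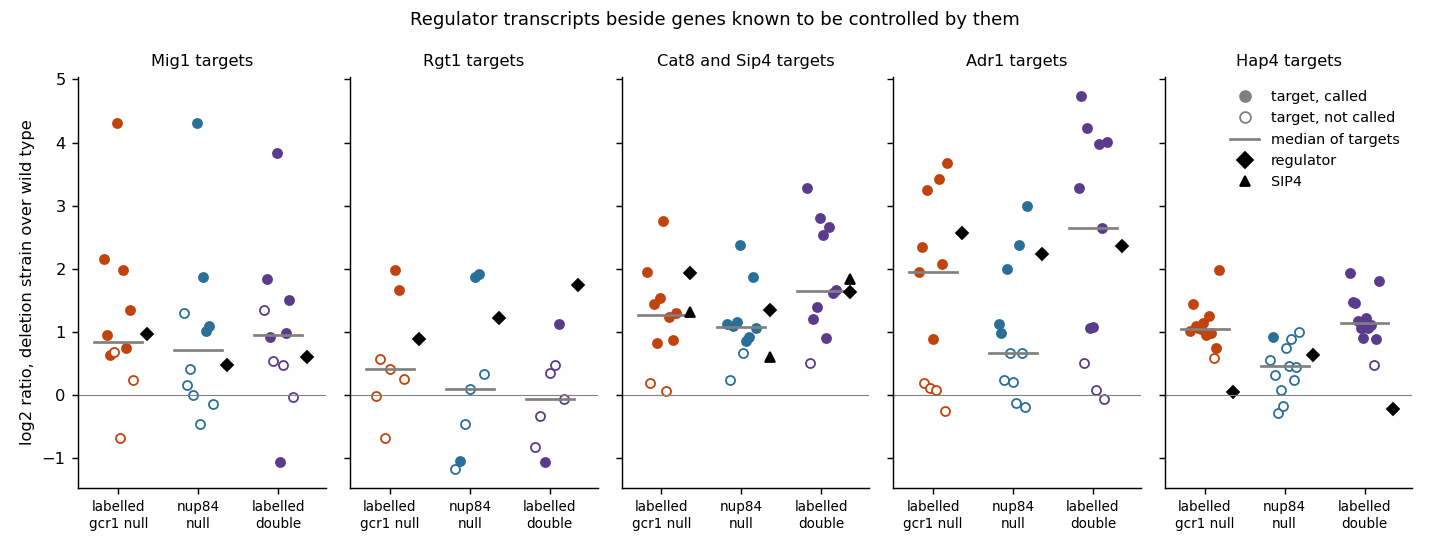
Log2 ratio of deletion strain over wild type for the known targets of Mig1, Rgt1, Cat8 and Sip4, Adr1 and Hap4 in each strain, with called genes filled, other genes open, the list median as a grey line, the regulator as a black diamond and SIP4 as a black triangle. ADR1 and CAT8 lay above 1 in every strain with most of their targets above 0, while HAP4 read 0.05 and -0.21 in the strains where 11 of 12 Hap4 targets were called higher.

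The differences between strains were tested directly. For 0 of 10 regulators did the nup84 null differ from the strain labelled gcr1 null, or the strain labelled double null from either (limma), where 0.515%, 0% and 0.745% of all genes were called in these comparisons (nup84 minus gcr1, double minus gcr1 and double minus nup84, as labelled). At an unadjusted p under 0.05 there were 1, 1 and 2 regulators, and 703, 298 and 892 genes in all. Samples were treated as independent between strains. The differences between array pairs (1 and 3 minus 2 and 4) correlated at 0.552 over genes between the strains labelled gcr1 and double null. A paired test of those strains was not run, so the lack of calls there is no sign of equal levels. NUP84, read as a check of the labels, also did not pass in double minus gcr1, as labelled (-2.25; limma, adjusted p = 0.106). That comparison can therefore miss large differences. SIP4 was 0.71 lower in the nup84 null than in the strain labelled gcr1 null (95% interval of the difference -1.37 to -0.05; adjusted p = 0.36). It was 1.22 higher in the strain labelled double null than in the nup84 null (0.56 to 1.89; adjusted p = 0.1).

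RGT1 was 0.85 higher in the strain labelled double null than in the strain labelled gcr1 null (95% interval 0.10 to 1.61; limma, adjusted p = 0.807). MIG3 was 0.85 higher in the strain labelled double null than in the nup84 null (0.14 to 1.56; adjusted p = 0.247). For ADR1 the intervals of nup84 minus gcr1, double minus gcr1 and double minus nup84, as labelled, were -1.01 to 0.38, -0.89 to 0.50 and -0.57 to 0.82, so each allows a difference of more than 0.5 in log2 units. For CAT8 they were -1.25 to 0.08, -0.96 to 0.37 and -0.37 to 0.96. All 6 intervals of ADR1 and CAT8 include 0. With arrays 1 and 4, and 2 and 3, taken as dye swaps, both were called lower in the nup84 null than in the gcr1-labelled strain. CAT8 was also called there in a fit with a dye term. Over all genes, pair means differed less under that pairing (SD 0.175 and 0.177 in the strains labelled gcr1 and nup84) than under the other (0.497 and 0.421). Pairs that mix samples can also have close means, so this does not favour that pairing. Arrays 1 with 3 and 2 with 4 correlated at 0.818 and 0.814 in the gcr1-labelled strain, against 0.716 and 0.707 for 1 with 4 and 2 with 3. In the nup84 null these were 0.741 and 0.735 against 0.575 and 0.656, and in the strain labelled double null 0.826 and 0.748 against 0.469 and 0.673. Which pairing is the dye swap was not tested. Up to 3149 of 5636 genes were called for this difference over the alternatives, so these calls are not particular to ADR1 and CAT8.

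The strain labelled double null was also set against the sum of the log2 ratios of both single-deletion strains. None of the 10 regulators passed (limma), nor did any other gene (0%), and at an unadjusted p under 0.05 there were 3 regulators among 909 genes. ADR1 lay 2.43 below the sum (95% interval -3.29 to -1.58; adjusted p = 0.0731) and CAT8 1.65 below it (-2.46 to -0.83; adjusted p = 0.107). Both passed below the sum when arrays were scaled to a common spread. Up to 3627 of all genes passed in this comparison over the alternatives, so these calls are not read as particular to ADR1 and CAT8. MIG3 lay 0.94 above the sum (0.07 to 1.81; adjusted p = 0.279), and SIP4 0.09 below it (-0.91 to 0.72; adjusted p = 0.913).

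**Figure D4:**
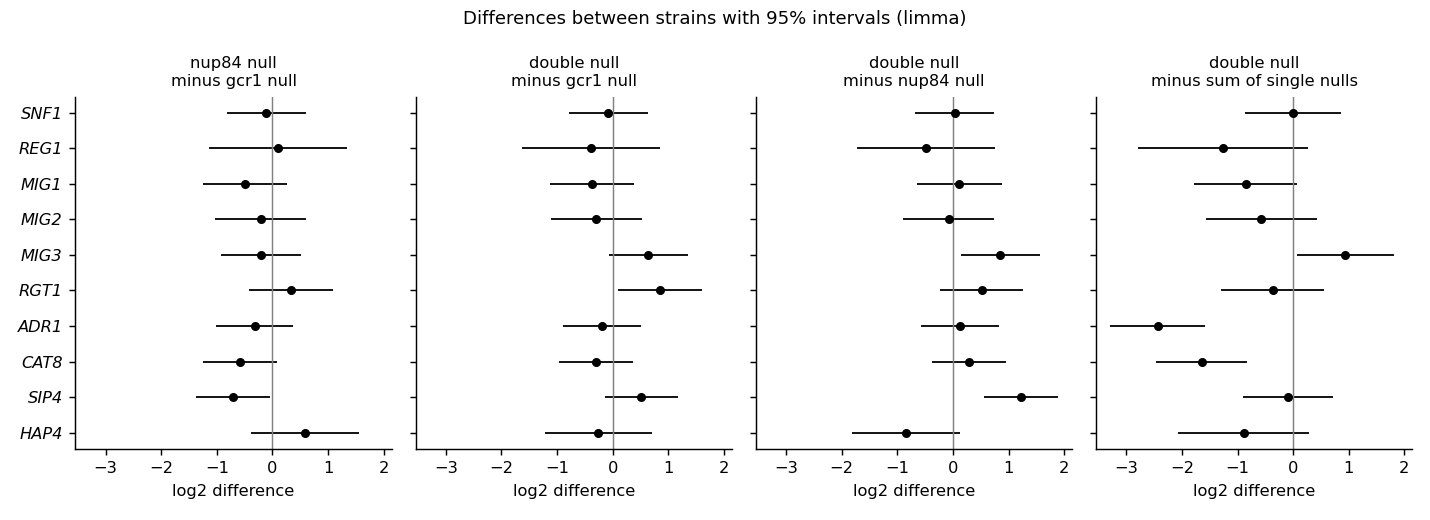
Differences in log2 ratio between strains, and between the strain labelled double null and the sum of both single-deletion strains, for each regulator with 95% intervals. The intervals of ADR1 and CAT8 lie below 0 against the sum, and that of SIP4 lies above 0 for the strain labelled double null against the nup84 null.

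The genes with the most similar values to each regulator were found as the root mean square difference over all 12 arrays, which share dyes and array effects. SBE2 was nearest to HAP4 (0.128) and SLM2 to SNF1 (0.151). TAF12 and PRP40 were nearest to REG1 (0.172 and 0.185) and carried the same low and high array pairs, with Pearson r of 0.98 and 0.981 over the arrays. LAM5 was nearest to MIG1 (0.176), PGD1 to MIG3 (0.201) and YHR078W to MIG2 (0.215). ADR1, CAT8, SIP4 and RGT1, whose highest strain means lay farthest above 0, had more distant neighbours. The part that the size of their ratios had in this was not tested. GDB1, encoding the glycogen debranching enzyme, was nearest to ADR1 (0.288), BAG7 to CAT8 (0.300) and DIT2 to SIP4 (0.484). GSP2 was nearest to RGT1 (0.287), followed by ICL1 (0.292), the isocitrate lyase gene that is also in the Cat8 and Sip4 list.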

How the data were processed

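Per the labels, total RNA went through Agilent's low-input linear amplification and labelling and was hybridised to 2-colour arrays. The deposited table holds 1 log2 ratio per probe and array. Its log base and direction are not written in it: base 2 fits the range of the values, and Cy5 over Cy3 follows the labelled dyes and the fall of NUP84 in the strains lacking it. Background correction and normalization by the authors have no statement in the sources used here. No channel intensities were analysed, so a dim or saturated spot is not known as such. Between 5 and 65 of 10807 probes per array had no value. The number of arrays limits the precision.

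Signs of arrays 3 and 4 of each strain were turned. Probes were named from the platform annotation: 9271 had 1 gene, 0 several and 1536 none. Probes of a gene were averaged (5636 genes, 18 probes for the 10 regulators), and each array was centred on its median, which lay between -0.162 and 0.099. Which arrays are dye swaps of each other is not labelled. Pair means were therefore fitted under both pairings (1 with 3, or 1 with 4, and the remaining arrays together), and the larger p and SE were kept. Tests used limma 3.58.1 (lmFit, eBayes) in R 4.3.3 with 3 residual degrees of freedom before moderation, and adjusted p-values over 5636 genes. Python 3.11.15 with matplotlib 3.10.9 drew the figures. Alternatives covered the pairing, centring, scaling, probe choice, the variance model, a 2-fold limit, a replicate block and each array pair left out, which leaves 1 mean for that strain, assumed to vary like the other strains.

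The regulators and gene lists were chosen with earlier results of these data known. All 10 regulators are named. From each list and strain up to 2 called genes in each direction were named, those farthest from 0. For each regulator the nearest of its 3 closest genes is named, and others where the text gives them. Further list genes (CYC8, the casein kinases with GRR1, HAP2, HAP3, HAP5, GUT1, ADY2 and SUC2, and values of named genes in other strains) were chosen after their values were seen. Coordinates and sequences are not printed, since no label names a genome build for the array.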

Additional observations from a re-analysis of the deposited data

Results flagged for a closer look

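In 5 of 126 groups of 4 arrays (42 genes in 3 strains), 1 array stood far from the other 3, where chance gives about 1 in 20 groups. Among the regulators this concerned ADR1 in the strain labelled double null, whose highest array read 2.647. Among the other named genes it concerned ALD4 in the strain labelled double null (highest 4.709), HXK1 in the nup84 null (lowest 3.859), RGT2 in the nup84 null (lowest -0.626) and SDH2 in the nup84 null (lowest 0.666).

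A difference between strains passed limma's test for 4 named genes, none of them among the 10 regulators. NUP84 was lower in the nup84 null than in the strain labelled gcr1 null (-2.704). JEN1, a target of Cat8 and Sip4, was lower in the nup84 null than in the strain labelled gcr1 null (-2.096) and higher in the strain labelled double null than in the nup84 null (1.875). ADH2 and ALD4, both targets of Adr1, were higher in the strain labelled double null than in the nup84 null (3.749 and 2.226). None of these 5 differences held throughout. The ADH2, ALD4 and JEN1 differences between the strain labelled double null and the nup84 null did not pass after arrays were scaled to a common spread (2.814, 1.048 and 1.323; adjusted p = 0.0754, 0.342 and 0.146), nor without any pair of nup84 null arrays (adjusted p = 0.0811 to 0.143, 0.297 to 0.513 and 0.303 to 0.516). That of JEN1 was also lost without any pair of the gcr1-labelled strain (adjusted p = 0.0635). The NUP84 and JEN1 differences between the nup84 null and the gcr1-labelled strain were each lost under 8 of 12 omissions, those of a pair of either strain. A 2-fold limit left the ADH2 difference alone past the threshold (adjusted p = 0.0281).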

How the results depend on the processing

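With arrays 1 and 4, and 2 and 3, taken as dye swaps, the counts of called regulators rose. They became 9 in the nup84 null and 9 in the strain labelled double null. They became 7, 7, 6 and 8 for nup84 minus gcr1, double minus gcr1, double minus nup84 and double minus the sum, as labelled. That pairing also called 4192 and 4629 of all 5636 genes in the nup84 null and the strain labelled double null. For the 4 differences it called 3149, 2340, 3582 and 3627 genes, in the same order. The higher counts under that pairing are therefore not particular to the regulators. A 2-fold limit left 2, 1 and 2 in the strains labelled gcr1, nup84 and double null. In the nup84 null 5 were called with 4 arrays as replicates, 7 with a dye term as well, 5 after scaling and 6 with each strain alone. Those gained there were REG1 and SIP4 after scaling, and REG1, SIP4 and HAP4 with each strain alone. With 4 arrays as replicates, double null minus nup84 null gave 1 and double null minus the sum 3. With the dye term, chosen after seeing the data, the 4 differences gave 1, 1, 2 and 4. Scaling gave 2 for double null minus the sum. Counts over all genes also ran widely over the alternatives, as given below, so none of these counts is read as particular to the regulators. Leaving out array pairs gave 2 to 6, 0 to 6 and 4 to 5 in the strains labelled gcr1, nup84 and double null, 0 to 0, 0 to 0, 0 to 2 and 0 to 4 for the differences. Signs turned on leaving out pairs for MIG2 in the nup84 null (-0.072 to 0.632), MIG3 and SNF1 in the strain labelled gcr1 null (-0.194 to 0.013 and -0.04 to 0.108), SNF1 in the nup84 null (-0.32 to 0.17), and SNF1, REG1 and HAP4 in the strain labelled double null (-0.23 to 0.14, -0.33 to 1.08 and -0.85 to 0.43), none of which passed as reported. The replicate block gave 5, 3 and 4 regulators in the strains and 0 in each difference, so it changed no regulator's call. It gave 3 in place of 1 called both for Hap4 targets and for Snf1 and Reg1 partners in the nup84 null. The sample differences (arrays 1 and 3 minus 2 and 4) correlated over genes at -0.005 for gcr1 with nup84, 0.552 for gcr1 with double and 0.099 for nup84 with double, as labelled. The main fit did not take the replicate numbers as pairs. It therefore did not use the correlation of 0.552 in double null minus gcr1 null, and a pairing of those strains alone was not tested. The cause of the changes under the replicate block was not tested. Counts over all genes, reported as 1964, 941 and 2224, ran from 281 to 4475, 4 to 4192 and 360 to 4629 over all alternatives. The 4 differences, reported as 29, 0, 42 and 0 genes, ran from 0 to 3149, 0 to 2340, 0 to 3582 and 0 to 3627. With 2 samples per strain, and without channel intensities, signal over background sets a limit that could not be read.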
